A study of Mus musculus with 2 samples.

Results

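The genes described here are Fezf2, a zinc finger transcription factor of medullary thymic epithelial cells, and the 7 tissue-specific antigens (TSAs) Apob, Calb1, Fabp9, Kcnj5, Maoa, Nol4 and Ttr, which have been tied to Fezf2 in earlier work. They were chosen by symbol, and all 8 were found among the 32285 genes of the deposited matrices. Their RNA was counted by droplet single-cell RNA sequencing in thymic epithelial cells (TECs, sorted as EpCAM+ CD45- TER119- cells) of female C57BL/6 mice. One library came from steady-state control thymi, and the other came from mice that received 5.5 Gy of gamma rays when 7 weeks old and were analysed 15 days later. Each was a pool of cells from 3 mice, so there was 1 library per condition, no replicate, and no test between conditions. Ages in the deposit differ, with 9 weeks in the sample labels and 4 weeks in the dissection protocol.

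The deposit disagrees with itself on which library is which. The library called control here carries a radiation label, and the one called irradiated here carries a control label, although the name prefixes of their matrices read the other way. Under the study's cell filters the first library kept 3233 cells and the second kept 5070. The smaller number is the cell count stated for control mice, so the libraries were assigned by cell number and against the labels. Every direction given between the libraries reverses if the labels are right. Results within a library do not depend on this.

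In the thymic medulla, epithelial cells make a great many proteins that otherwise belong to single peripheral tissues, so that developing T cells that recognise them can be deleted or turned into regulatory T cells. Aire and Fezf2 are the best known regulators of this ectopic expression, and the antigens lost from mice without Fezf2 are largely other than those lost without Aire. Each TSA is typically found in a small fraction of medullary TECs (mTECs) at any time, and groups of mTECs also take on features of peripheral cell types such as tuft cells, keratinocytes or enterocytes. Lymphotoxin and RANK family receptors, acting through NF-kB, are known to drive mTEC maturation.

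The sequences just upstream of the genes were set beside those of other mouse promoters. RefSeq promoters on GRCm38.p6 were found for 4 of the 8 genes, and the 250 bases before each start are printed with every CG dinucleotide in capitals, which marks how far a promoter resembles a CpG island. The Fezf2 stretch (chr14:12345866-12346115, minus strand) lies inside the longer gene model used for counting, and those of Apob (chr12:7977427-7977676, plus strand), Kcnj5 (chr9:32344345-32344594, minus strand) and Maoa (chrX:16619448-16619697, plus strand) lie at the 5′ ends of their genes.
Fezf2: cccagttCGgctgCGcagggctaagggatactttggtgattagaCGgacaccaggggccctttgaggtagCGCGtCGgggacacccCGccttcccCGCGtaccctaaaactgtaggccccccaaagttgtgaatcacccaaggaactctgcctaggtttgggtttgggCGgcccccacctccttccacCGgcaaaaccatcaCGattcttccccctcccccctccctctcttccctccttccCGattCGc
Apob: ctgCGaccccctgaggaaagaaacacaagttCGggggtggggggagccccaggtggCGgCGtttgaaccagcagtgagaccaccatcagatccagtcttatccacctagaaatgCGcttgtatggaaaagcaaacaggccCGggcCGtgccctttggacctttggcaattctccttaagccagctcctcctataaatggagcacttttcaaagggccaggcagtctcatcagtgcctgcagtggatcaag
Kcnj5: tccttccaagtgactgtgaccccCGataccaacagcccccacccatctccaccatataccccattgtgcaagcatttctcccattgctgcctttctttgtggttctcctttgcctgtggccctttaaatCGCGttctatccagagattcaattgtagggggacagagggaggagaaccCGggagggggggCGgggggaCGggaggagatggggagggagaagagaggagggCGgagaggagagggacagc
Maoa: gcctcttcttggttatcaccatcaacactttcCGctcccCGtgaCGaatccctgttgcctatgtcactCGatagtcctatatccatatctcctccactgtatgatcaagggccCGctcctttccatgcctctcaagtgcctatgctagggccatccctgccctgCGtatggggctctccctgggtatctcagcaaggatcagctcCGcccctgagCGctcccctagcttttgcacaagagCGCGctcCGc
The Fezf2 stretch holds 14 CG dinucleotides, a number that 29.4% of 32851 mouse promoter stretches of the same length reach. Maoa has 11, reached by 35.6%, and Apob and Kcnj5 have 7 each, reached by 46.3%, against a median of 6 over all stretches. The letters TATAAA, searched on both strands, occur in the Apob stretch 60 bases before the start and in none of the other 3, against 12.4% of all promoter stretches. Fezf2 itself spans chr14:12342094-12348189 on the minus strand. The antigens lie on 6 chromosomes, with Maoa on the X chromosome, and each of the 8 genes is annotated as protein coding. Fabp9 overlaps the predicted gene Gm37389 on the same strand, so its reads and those of Gm37389 may have been shared or discarded in counting.

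Barcodes were kept with more than 2000 and fewer than 7500 detected genes and less than 15% mitochondrial UMIs (unique molecular identifiers, each standing for 1 captured transcript). These were 65.5% of 4937 control barcodes and 70.7% of 7167 irradiated ones, with 51586327 and 75542631 UMIs and a median of 13412 and 13003.5 UMIs per cell. Of the barcodes, 17 occurred in both libraries, 5 of them among kept cells. Clustering without the 8 genes gave 14 clusters (C0 to C13). By their markers C0 and C1 were Ccl21a+ mTEC-like, C4 Aire+ mTEC-like, C5 transit-amplifying (TA) mTEC-like, C8 cortical TEC (cTEC)-like, C9 tuft-like, C10 keratinocyte-like, C11 nurse cTEC-like, C12 neuroendocrine-like with 42 cells and C13 ciliated-like with 21 cells. Clusters C2, C3, C6 and C7 stayed unnamed. C2 was Aire-high and led by S100a9, Pcp4 and S100a8, while C3 was led by Pnp2, Ccl9 and Muc13, the last a mucin of the gut lining. In C3, 10 of 10 intestinal and liver markers and 6 of 7 markers of microfold cells were at least 2-fold above the other cells. In C2 these were 6 of 10 and 0 of 7. Cells within C3 may thus be of more than 1 kind, also where ratios are taken within clusters, which was not tested. C6 had the highest level of Pdpn of the 14 clusters, and C7 carried Ccl21a beside a low level of Aire.

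Levels are given as UMIs of a gene per 10000 UMIs of all genes, summed over the cells of a cluster, with exact Poisson 95% intervals. Shares of cells are given after every cell was thinned to 4000 UMIs, with exact Clopper-Pearson 95% intervals. Both cover counting error of 1 library and not the spread between mice, and they are too narrow where a few cells hold most UMIs of a gene.

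Fezf2 UMIs were counted in every cluster. Among clusters holding 50 or more cells of each library, the levels were highest in C2 to C5, which also had the highest levels of Aire, and C7 and C10 followed with less Aire. Its level was highest in C4, the Aire+ mTEC-like cluster, at 7.82 (7.62 to 8.03) in control cells and 7.56 (7.40 to 7.73) in irradiated cells. This was 1.54 and 1.56 times the level of the next cluster, C2, with 5.07 (4.90 to 5.24) and 4.85 (4.71 to 5.0). C3 followed with 4.64 and 4.72, and the dividing C5 with 4.56 and 3.98. The unnamed C7 stood at 3.61 and 3.64 and the keratinocyte-like C10 at 3.40 and 2.63. These 6 had the highest Fezf2 levels in both libraries, with Ccl21a+ mTEC-like, cortical and tuft-like cells below them.

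The lower range began with C1 at 1.58 and 1.23, which was above the other Ccl21a+ cluster, C0, at 0.883 and 0.824. The cTEC-like C8 had 0.827 and 0.998, and the tuft-like C9 had 0.545 and 0.523. The lowest level was that of C6, with 0.156 (0.121 to 0.198) in control cells and 0.0852 (0.0583 to 0.120) in irradiated cells. The intervals of neighbours in the control order overlapped between C3 and C5, C7 and C10, and C0 and C8, and in the irradiated order between C2 and C3. The nurse cTEC-like C11, where thymocyte markers summed to 15.0 and 17.8 UMIs per 10000, had Fezf2 at 0.407 and 0.213. In the neuroendocrine-like C12 it was 1.11 and 1.10, and in the ciliated-like C13 7.02 and 2.05 over 7 and 14 cells.

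**Figure D1:**
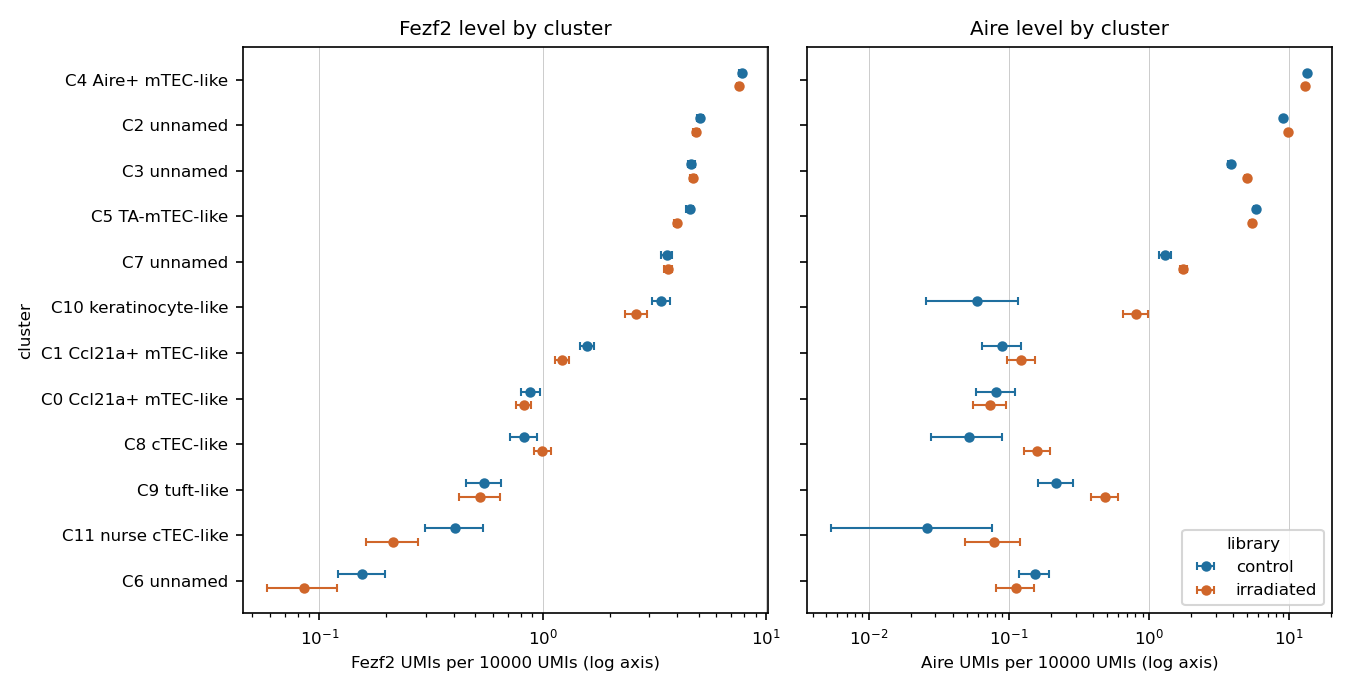
Levels of Fezf2 (left) and Aire (right) in 12 clusters, in UMIs per 10000 UMIs on a log axis, with clusters ordered by Fezf2 in the control library; points are libraries and bars are exact Poisson 95% intervals. C10 had Fezf2 at 3.40 and 2.63 with Aire at 0.0594 and 0.801, whereas C4 led in both genes.

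By shares of cells the order below C4 differed from that by level. After thinning, 46.2% of control cells and 47.2% of irradiated cells had a Fezf2 UMI. In C4 the share was 86.1% (81.8 to 89.8) and 83.7% (80.4 to 86.7), and C5 came next with 76.8% and 68.0%, while C7 (68.8% and 64.1%), C2 (67.2% and 67.3%) and C3 (65.9% and 63.0%) lay close together. In C6, which had the lowest share, it was 3.12% (1.62 to 5.40) and 2.25% (0.978 to 4.39). The median depth before thinning was 23634 and 18593 UMIs per cell in C4 against 10150 and 9593 in C6. The shares in C8 (20.1% and 24.5%) and C0 (26.5% and 24.7%) were above that of C6, and so was that of C9 (10.6% and 10.9%). C6 was singled out because its share was the lowest, and free RNA was not measured. Whether any of these shares exceed what free RNA can give was therefore not tested. One cell in C4 of the control library reached 114 Fezf2 UMIs and 1 in C2 of the irradiated library reached 83.

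Fezf2 and Aire, the other regulator of ectopic expression, were often but not always found in the same cell. Of all kept cells, 24.6% in control cells and 26.7% in irradiated cells had a UMI of both genes after thinning, 21.6% and 20.5% had Fezf2 without Aire, and 8.60% and 9.67% had Aire without Fezf2. Joint detection was commonest in C4 (81.6% and 79.3%), followed by C2 (56.3% and 59.5%). C7 and C10 differed from these, since Fezf2 without Aire was found in 50.2% and 41.9% of C7 cells and in 51.1% and 38.9% of C10 cells. The number of Fezf2 UMIs for each Aire UMI was 0.557 and 0.494 in C2, 0.585 and 0.586 in C4 and 0.784 and 0.739 in C5, and it was 1.21 and 0.937 in C3 and 2.77 and 2.08 in C7. In C0, C1 and C8, where few Aire UMIs were counted, it was 10.9 and 11.2, 17.6 and 10.0, and 15.8 and 6.25. In C10 it was 57.3 in the control library but 3.28 in the irradiated one, since only 8 Aire UMIs were counted among 94 control cells against 94 among 90 irradiated cells.

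Within single clusters the shares were set side by side. In C3, Fezf2 was detected in 74.1% (67.6 to 79.8) of control cells with Aire and in 57.8% (50.8 to 64.5) of those without. In the irradiated library these shares were 73.6% (68.1 to 78.6) and 48.8% (41.9 to 55.8). In C7 they were 82.6% and 64.8% of control cells, with overlapping intervals, and 78.4% (70.4 to 85.0) and 58.4% (53.0 to 63.7) of irradiated cells. In C5 they were 81.0% and 67.2%, again overlapping, and 77.1% (72.1 to 81.6) and 55.1% (48.3 to 61.7). In C2 and C4 the intervals of the 2 classes overlapped in both libraries, for instance 66.7% with Aire against 70.2% without in C2 of the control library. Over 20 random thinnings, cells with Aire had Fezf2 at a median of 1.14 and 1.17 times the share expected from cells of the same cluster without Aire, and the ratio was above 1 in 20 of 20 thinnings in both libraries. Pooled over clusters, cells with an Aire UMI also had more UMIs in all, with medians of 18559.5 against 15661 in control cells and 17007 against 11630 in irradiated cells. The clusters pooled were C2, C3, C5 and C7 in the control library, and C0 and C4 as well in the irradiated one. These medians were not taken within clusters. Whether depth has a part in the Fezf2 ratios was not tested beyond the thinning.

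The genes whose levels followed Fezf2 most closely were found by Pearson correlation of log2 levels over 22 points (11 clusters in 2 libraries) among 12595 genes. In order they were Skint10 (0.974), Nfkb2 (0.967), Bspry (0.965), Birc3 (0.965), Zbtb46 (0.962), Stap2 (0.957), Fgd5 (0.953), Lpo (0.952), Pkdcc (0.951) and Srgn (0.95). Nfkb2 is an NF-kB subunit of the noncanonical pathway, and Birc3 an inhibitor of apoptosis. The correlation of Aire with Fezf2 was 0.774, and those of the antigens ran from 0.13 for Kcnj5 to 0.692 for Calb1. The points share libraries and clusters, and the values are a description.

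The 7 antigens did not share a pattern with Fezf2 or with one another. Apob and Calb1 were confined mostly to C2, C3 and C4, which held 34.1% and 31.4% of the cells. Ttr and Fabp9 peaked in C3, with Fabp9 also in C10. Nol4 and Kcnj5 were highest, among clusters holding 50 or more cells of each library, in the tuft-like C9 and present in C4, C5 and C7. Maoa was highest in C4 and was present in C6, where Fezf2 was lowest. Among non-epithelial markers in C2 to C4, 5 myeloid genes summed to 10.3 and 8.96 UMIs per 10000 in C3, 6.94 and 6.84 in C2, and 6.19 and 5.74 in C4. Lyz2 gave 6824 of 6946 and 6036 of 6169 of these UMIs in C3, where Itgax was at 0, and 8 thymocyte genes summed to 0.283 and 0.471 there. Their part in the antigen levels was not tested.

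Apob, Ttr and Fabp9 encode carriers of lipids or hormones. Apob, which encodes the main structural protein of chylomicrons and low density lipoproteins of gut and liver, had 580 UMIs in 72 control cells and 783 UMIs in 113 irradiated cells. C2 to C4 held 99.0% of its UMIs in control cells and 90.2% in irradiated cells. Its level was 0.375 (0.331 to 0.424) and 0.388 (0.348 to 0.432) in C2, 0.229 and 0.433 in C3, and 0.227 and 0.0668 in C4. In the Ccl21a+ clusters C0 and C1 together 1 Apob UMI was counted in each library.

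Ttr, the carrier of thyroid hormone and retinol binding protein made by liver and choroid plexus, had 1672 UMIs in 66 control cells and 1801 UMIs in 80 irradiated cells. C3 stood apart with 2.2 (2.08 to 2.31) and 1.92 (1.82 to 2.02). At the finer clustering resolution of 1.0, the cluster that held most cells of C3 had 0.172 and 0.206, so the level given for C3 depends on where the clusters are divided. In C2 the level was 0.119 and 0.466, and in C4 it was 0.0208 and 0.0252 despite the highest Fezf2 and Aire. In C10 the control value of 0.616 rested on 1 cell with 82 UMIs, without which it was 0.00755.

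Fabp9, a fatty acid binding protein of the testis, had 4634 UMIs in 240 control cells and 2461 UMIs in 266 irradiated cells. Its level was 4.90 (4.74 to 5.07) and 2.47 (2.36 to 2.60) in C3 and 3.87 (3.54 to 4.22) and 4.89 (4.49 to 5.30) in C10. In C4 it was 0.0138 and 0.0116. After thinning 21.2% and 21.9% of C3 cells and 17.0% and 25.6% of C10 cells had a Fabp9 UMI, against 0.968% and 0.185% of C4 cells. The control value of 1.10 in C2 was 0.237 without 1 cell that held 590 UMIs.

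Calb1 encodes calbindin-D28k, a calcium buffer of neurons and kidney tubules. Its 782 UMIs in 209 control cells and 869 UMIs in 252 irradiated cells lay mostly in C2 (0.371 and 0.493), C3 (0.205 and 0.362) and C4 (0.404 and 0.0997). Without the highest cell, which held 178 UMIs, the control level of C4 was 0.159. The shares of cells were 8.20% and 8.81% in C2 and 6.12% and 6.24% in C3, whereas in C4 they were 5.81% and 3.70%, so the clusters resembled each other more by cells than by UMIs. No thinned cell of C0 and C1 had a Calb1 UMI in the control library, and 0.147% (0.0178 to 0.531) had one in the irradiated library.

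Kcnj5, a subunit of the G protein-gated inward rectifier potassium channel of heart and adrenal cortex, was the least abundant, with 149 UMIs in 116 control cells and 192 UMIs in 155 irradiated cells. Its level was highest in the tuft-like C9, at 0.138 (0.0934 to 0.195) and 0.190 (0.131 to 0.266). C5 followed in the control library with 0.0845 (0.0631 to 0.111) against 0.0369 (0.0273 to 0.0488) in the irradiated one. In C4 it was 0.0582 and 0.0474 and in C7 0.0447 and 0.0482, with overlapping intervals. No Kcnj5 UMI was counted in C0 and C1 of either library, which allows a level of up to 0.00399 and 0.00263.

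Maoa encodes monoamine oxidase A, a mitochondrial enzyme that degrades serotonin and noradrenaline in many tissues, and it was the antigen found in most clusters. It had 1069 UMIs in 625 control cells and 1466 UMIs in 901 irradiated cells. The level was 0.433 (0.387 to 0.484) and 0.391 (0.354 to 0.431) in C4, 0.303 and 0.306 in C2, and 0.290 and 0.296 in C3. In C6 it was 0.208 (0.168 to 0.256) and 0.205 (0.162 to 0.256), with 7.81% and 10.99% of thinned cells carrying a UMI although Fezf2 was at its lowest there. C7, with Fezf2 in 68.8% and 64.1% of its thinned cells, had less Maoa than C6, at 0.0745 and 0.0666.

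Nol4, a nucleolar protein gene used mainly in brain and testis, had 1081 UMIs in 625 control cells and 1353 UMIs in 857 irradiated cells. It was at 0.448 (0.365 to 0.544) and 0.413 (0.324 to 0.521) in the tuft-like C9, 0.437 and 0.323 in C5 and 0.397 and 0.320 in C4, with overlapping intervals between C9 and C4 in both libraries. Without the cell of C9 with 30 UMIs the irradiated value was 0.244. In the neuroendocrine-like C12 it reached 0.730 (0.439 to 1.14) and 0.939 (0.485 to 1.64) over 24 and 18 cells. C0, C1 and C6 were all below 0.05.

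**Figure D2:**
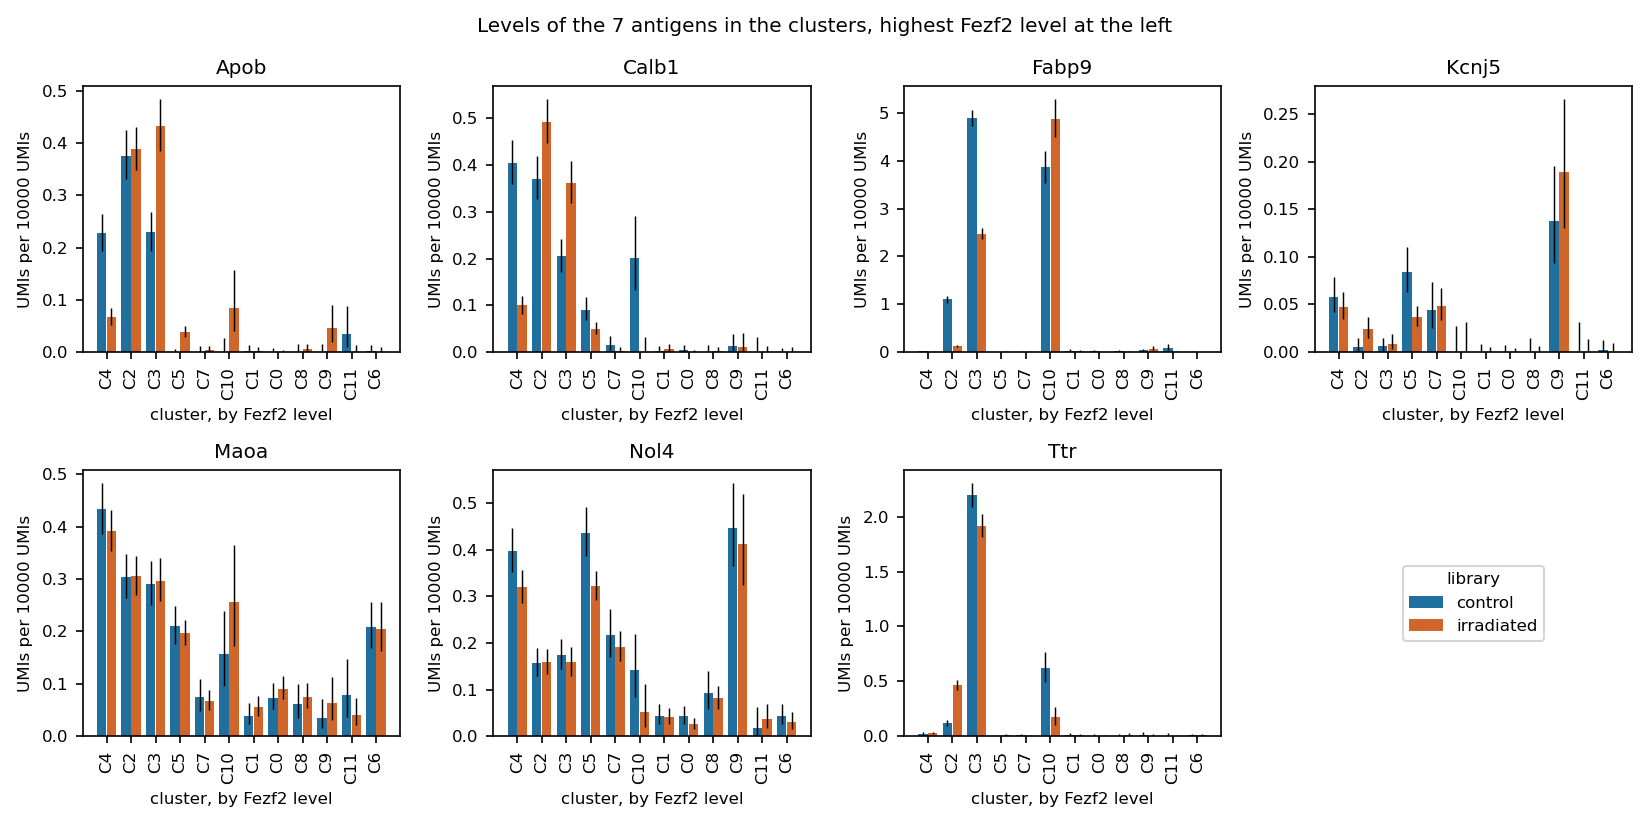
UMIs of each antigen per 10000 UMIs in 12 clusters, ordered by Fezf2 level in the control library from left to right; bars are the libraries, error bars are exact Poisson 95% intervals, and each panel has its own axis from 0. Ttr reached 2.2 and 1.92 in C3 but 0.0208 and 0.0252 in C4, and Maoa stood at 0.208 and 0.205 in C6 at the far right.

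By the same measure as for Fezf2, the genes most like Apob over the 22 points were Chrna5 (0.975), Dnaic2 (0.969) and Tnfrsf17 (0.965). Those most like Ttr were Prap1 (0.978), Ces2c (0.958) and Ceacam20 (0.957), each known from the intestine. Fabp9 was followed by Gsta1, Ifi205 and Klk1b26, Calb1 by Itln1, Crybb1 and Gucy1b2, Kcnj5 by Hap1, Esam and Adgrb2, Maoa by Marc2, Fzd1 and Phc3, and Nol4 by Stk4, Ydjc and Snrnp25. Among the antigens, Fabp9 and Ttr correlated at 0.863, Kcnj5 and Nol4 at 0.857, and Apob and Calb1 at 0.836. Kcnj5 and Fabp9 were at -0.278.

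The antigens differed in how their UMIs were spread over cells. Ttr was the extreme case, since 2 control cells and 4 irradiated cells held 50% of its UMIs, and the highest cells held 675 of 20017 UMIs and 353 of 11546 UMIs. The 1% of cells with most UMIs held 98.0% and 98.4% of Ttr, 89.5% and 89.0% of Apob, 75.4% and 76.1% of Fabp9, and 63.8% and 66.4% of Calb1. For Maoa these shares were 20.9% and 21.6%, for Nol4 17.6% and 19.4%, and for Fezf2 10.5% and 9.76%. Kcnj5, with 44.3% and 45.8%, had so few UMIs that single counts in different cells give a high share.

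The variance of thinned counts over their mean is 1 for Poisson counts at a common level. It was taken over all thinned cells of a library and not within clusters, so differences between clusters enter it. This ratio was 57.8 and 63.7 for Ttr, 37.6 and 17.0 for Fabp9, 5.76 and 11.6 for Apob, and 5.75 and 6.75 for Calb1. It was 1.07 and 1.12 for Kcnj5, 1.27 and 1.31 for Maoa, 1.21 and 1.27 for Nol4, and 3.28 and 3.10 for Fezf2. The antigens thus fell into one group held largely by few cells with many UMIs each (Apob, Calb1, Fabp9, Ttr) and another with mostly 1 or a few UMIs in a cell (Kcnj5, Maoa, Nol4). Of the latter, Maoa and Nol4 were found in many cells. Kcnj5, with 149 and 192 UMIs in all, was found in 116 and 155 cells, fewer than Calb1 (209 and 252).

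**Figure D3:**
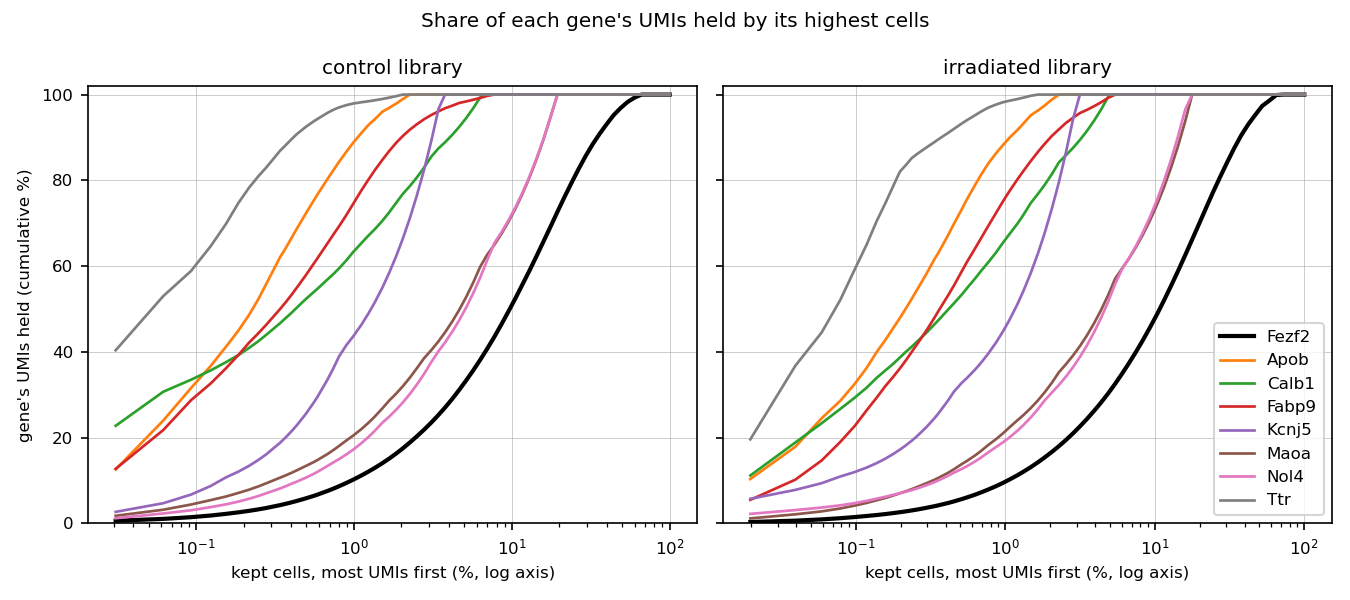
Cumulative share of each gene's UMIs (vertical axis, in percent) held by the cells with most UMIs of it (horizontal axis, percent of kept cells on a log axis), for the control library (left) and the irradiated library (right). The highest 1% of cells held 98.0% and 98.4% of Ttr UMIs but 10.5% and 9.76% of Fezf2 UMIs.

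The cells with at least 10 UMIs of 1 antigen were then compared with the other cells of the same clusters and libraries, by ratios of UMIs per UMI in all, where a cluster of a library held at least 5 such cells. This left 32 of 36 Ttr-high, 37 of 39 Apob-high, 124 of 128 Fabp9-high and 19 of 25 Calb1-high cells. The Ttr-high cells numbered 36, of which 28 lay in C3 and 5 in C2, and they held 91.6% of Ttr UMIs. Apob-high cells numbered 39 (17 in C2, 14 in C3 and 6 in C4) and held 70.9%, Fabp9-high cells 128 (101 in C3 and 18 in C10) with 87.0%, and Calb1-high cells 25 (10 in C2 and 9 in C3) with 45.0%. Their median UMIs in all were 15661, 17577, 16005.5 and 20133, against 14003, 16451, 14173.5 and 14797 in the cells they were compared with. Fezf2 was below the expected level in the Ttr-high cells (ratio 0.326, 0.262 to 0.402), the Apob-high cells (0.544, 0.472 to 0.624) and the Fabp9-high cells (0.768, 0.714 to 0.826), and it was 1.11 (0.963 to 1.27) in Calb1-high cells. For Aire the ratios were 0.247, 0.961, 0.640 and 0.754 in Ttr-, Apob-, Fabp9- and Calb1-high cells.

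A list of intestinal and liver genes was then examined in the Ttr-high and Apob-high cells. Of 9 listed genes with enough UMIs, 9 were at least 1.5 times the expected level in Ttr-high cells, with a median of 5.14, where 12.2% of all genes tested were. In Apob-high cells 8 of 9 were, with a median of 3.78 and 12.0% of all genes. Saa1 (14.6) and Reg3g (12.9), secreted proteins of the acute phase and of gut defence, led in the Ttr-high cells, and in the Apob-high cells Apoa4, an intestinal apolipoprotein, was at 8.34 and Reg3g at 5.71. Calb1-high cells had 4 of 9 listed genes past 1.5 with a median of 1.00 (11.6% of all genes), and Fabp9-high cells 3 of 10 with a median of 1.24 (5.60%).

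Some genes were looked up after these values were seen. In Apob-high cells the fibrinogen chain Fgb was at 14.2 times the expected level, but in 2 of the 39 cells, and the intestinal disaccharidase Sis was at 15.2 in 12 cells. In Ttr-high cells Apoa1, the main apolipoprotein of high density lipoproteins, was at 22.2 in 12 of the 36 cells, and Serpina1b, an alpha-1-antitrypsin gene, at 14.3 in 8 cells. Among others of the genes looked up, the apolipoprotein Apoa2 was below the expected level in Ttr-high cells, at 0.417 (0.180 to 0.821). Serpina1b was at 0.645 in Apob-high cells, with an interval (0.259 to 1.33) that includes 1. Alb, the serum albumin of hepatocytes, had a UMI in 2 of 36 Ttr-high and 3 of 39 Apob-high cells, and Hnf4a, a transcription factor of liver and gut, in 4 and 2. Apob was at 3.79 (2.91 to 4.85) in Ttr-high cells, and Ttr at 4.83 (4.31 to 5.40) in Apob-high cells, where 4 of 39 cells had any Ttr UMI. The summed ratio therefore rested on few cells.

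Neighbouring genes on the chromosome were examined within 250 kb of the antigens. In Fabp9-high cells the adjacent Pmp2, a fatty acid binding protein of myelin 9692 bp away, was at 7.50 (6.61 to 8.47) times the expected level and had a UMI in 47 of 128 cells. Fabp12, at 46926 bp, was at 3.51, Fabp4 (6805 bp), the fatty acid binding protein of fat cells, at 2.74, and Fabp5 (177014 bp), that of the epidermis, at 2.0. Gm38335 was at 2.17 (1.47 to 3.10) in 13 cells. Of the remaining genes in the window, Slc10a5 was at 1.73 (0.967 to 2.85), Impa1 at 1.15, Zfand1 at 1.03, Chmp4c at 0.894 and Snx16 at 0.736 (0.591 to 0.906). Fabp9 transcripts shared 0 of 648 stretches of 31 bases with each of its neighbours Pmp2, Fabp12, Fabp4 and Fabp5. Decr1, 9176 bp from Calb1, was at 2.58 (1.74 to 3.68) in Calb1-high cells. Nbn and Ripk2, also near Calb1, were at 1.85 (0.92 to 3.31) and 1.485 (0.712 to 2.73) there. Ldah, 191272 bp from Apob, was at 1.88 (1.3 to 2.62) in Apob-high cells. Dsg2, B4galt6 and Trappc8, near Ttr, were at 1.06, 1.00 and 1.46 (0.970 to 2.11) in Ttr-high cells. Of all genes tested, 5.60%, 11.6%, 12.0% and 12.2% were past 1.5-fold higher in Fabp9-, Calb1-, Apob- and Ttr-high cells.

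Few pairs of antigens met in a cell clearly more or less often than their shares within clusters predict, but many pairs had few expected cells. For 21 pairs in 2 libraries, the count of thinned cells with both was set against the count expected if detection were independent within a cluster. Apob and Ttr met in 5 control cells where 1.28 were expected (ratio 3.92, 1.27 to 9.15) and in 3 irradiated cells where 1.86 were expected (1.61, 0.332 to 4.70). Fabp9 and Maoa met in 21 control cells against 12.3 (1.71, 1.06 to 2.61) and in 17 irradiated cells against 16.9. Kcnj5 and Nol4, which shared clusters, met in 2 control cells against 3.06 and in 0 irradiated cells against 4.03 (ratio 0, up to 0.915). Before thinning, however, 58 control cells and 52 irradiated cells had UMIs of both Kcnj5 and Nol4. The thinned counts of all pairs rest on a single random draw, and how far they vary between draws was not tested. The intervals of the remaining pairs included 1. Expected counts ran from 0.140 for Kcnj5 and Ttr in control cells to 22.0 for Maoa and Nol4 in irradiated cells. Where few cells were expected the intervals were wide, reaching 26.3 for Kcnj5 and Ttr in control cells. Such pairs cannot show whether detection was independent.

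The question whether the antigens go with Fezf2 from cell to cell was addressed within clusters. Cells with a Fezf2 UMI after thinning were compared with those without, and the UMIs of each antigen were set against the number expected from the cells without Fezf2 of the same cluster and library. With 1453 against 1178 cells in the control library, Ttr (2.49), Calb1 (2.0) and Kcnj5 (2.0) were past 1.5-fold higher and Fabp9 (0.394) was past it lower. Of all 17767 genes tested 4.31% were past 1.5-fold higher and 14.5% lower, with a median of 0.992. With 2347 against 2074 irradiated cells, 0 of the 7 were higher and Apob (0.504) and Ttr (0.0754) were lower, where 3.99% and 12.1% of genes were. The median over the antigens was 1.40 for control cells and 1.05 for irradiated cells.

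These UMI ratios varied with the random draw by which cells were thinned. Ranges over thinnings, here and below, are the lowest and highest values over draws from the same cells. They do not cover counting error. Over 20 thinnings, chosen after this was seen, the control ratio of Ttr ran from 0.186 to 3.53 with a median of 0.753, that of Calb1 from 0.395 to 3.29, and that of Fabp9 from 0.240 to 1.19. That of Kcnj5 ran from 0.870 to 2.02 with a median of 1.32, and was past 1.5-fold higher in 4 of 20 thinnings. The control ratio of Apob ran from 0.239 to 1.05 with a median of 0.413, and was past 1.5-fold lower in 12 of 20. The irradiated ratio of Apob ran from 0.384 to 0.656 and was past 1.5-fold lower in 20 of 20. That of Ttr ran from 0.063 to 0.858 and was past it lower in 19 of 20. Irradiated Kcnj5, Nol4 and Calb1 were past it higher in 5, 3 and 2 of 20. Because UMI ratios varied with the draw, cells with a UMI were counted too. In the first draw 1 of 6 antigens was past 1.5-fold higher by cells (Nol4, 1.59) and 1 lower (Ttr, 0.512), where 2.94% of genes were higher and 6.89% lower. For irradiated cells 1 of 6 was higher (Calb1, 1.80) and 2 were lower (Ttr, 0.308, and Apob, 0.603), where 2.01% and 6.32% of genes were. Over the 20 draws Ttr was at a median of 0.542 (0.420 to 0.727) in control cells and 0.449 (0.226 to 0.660) in irradiated cells, and in no thinning did it exceed 1. Apob was at 0.606 (0.308 to 1.14) and 0.730 (0.505 to 1.00), and was above 1 in 1 of 20 thinnings in each library.

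Nol4 was the antigen whose ratio by Fezf2 detection was most steadily above 1 over the thinnings. Within classes of Aire detection its shares differed in both directions, as given below. By UMIs its median ratio was 1.31 (1.10 to 1.62) and 1.39 (1.25 to 1.61), above 1 in 20 of 20 thinnings in both libraries, and by cells it was 1.32 (0.927 to 2.06) and 1.40 (1.07 to 1.63). It did not pass 1.5-fold at the median. For Maoa the ratio by cells was 1.08 (0.797 to 1.67) and 1.24 (0.941 to 1.45), for Calb1 1.16 (0.867 to 1.87) and 1.20 (0.929 to 1.72), and for Fabp9 0.964 (0.750 to 1.15) and 0.95 (0.80 to 1.09). Kcnj5 had fewer than 20 expected cells and is not given by cells. Median depths, pooled over clusters, were 16741 UMIs in control cells with Fezf2 against 12279 without, and 14963 against 11912 in the irradiated library.

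**Figure D4:**
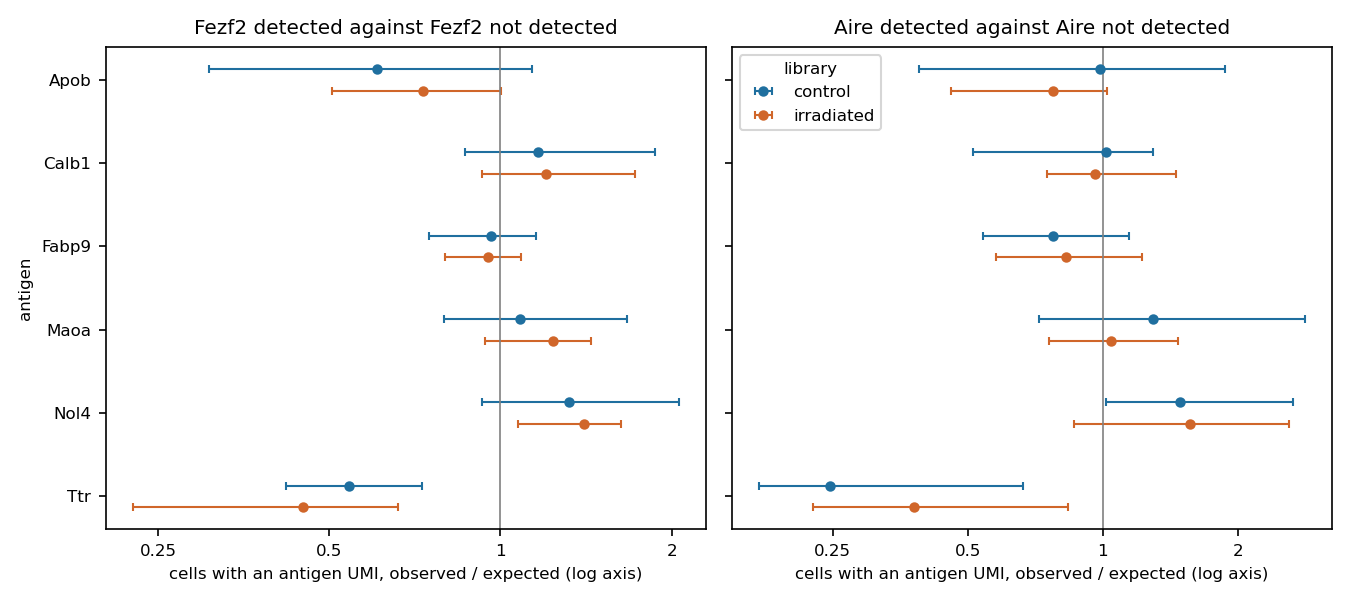
Cells with a UMI of an antigen among cells with Fezf2 (left) or Aire (right) detected, over the number expected from cells of the same cluster without it, on a log axis; points are medians and bars the lowest and highest of 20 random thinnings to 4000 UMIs. Ttr lay below 1 in each thinning of both libraries in both panels, with medians of 0.542 and 0.449 for Fezf2 and 0.247 and 0.38 for Aire.

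The amount of Fezf2 was examined in the cells of C2, C3 and C4 together. The share of cells with a Ttr UMI was 5.52% (3.25 to 8.69), 3.11%, 4.12% and 1.01% (0.275 to 2.55) in control cells with 0, 1, 2 and 3 or more Fezf2 UMIs. In the irradiated library it was 5.51%, 1.79%, 2.19% and 0.347%. For Fabp9 the control shares were 14.6%, 8.0%, 10.6% and 7.04% and the irradiated ones 11.01%, 10.4%, 6.58% and 5.03%. Both antigens were rarest where Fezf2 was highest. These classes pool the 3 clusters, and C4, with the highest Fezf2, had little of either antigen. Nol4 was at 6.49% (4.01 to 9.85), 8.0%, 8.24% and 11.6% (8.59 to 15.1) in control cells and at 8.81%, 6.27%, 7.89% and 9.19% in irradiated cells, with overlapping intervals between the classes in both libraries.

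Aire detection was treated in the same way, over 714 against 493 control cells and 1761 against 1625 irradiated cells in clusters with enough cells of both classes. In the first draw these were C2, C3, C5 and C7 for control cells, and C0 and C4 as well for irradiated cells. The ratios of the libraries by Aire detection are thus over different clusters. Kcnj5 (1.81) was past 1.5-fold higher and Ttr (0.117) lower in the control library, where 10.4% and 18.7% of genes were. In the irradiated library 0 of 7 were higher and Ttr (0.140) was lower, where 10.9% and 17.3% of genes were. By UMIs the control ratio of Ttr ran from 0.0601 to 1.71 over 20 thinnings, above 1 in 7 of them. Kcnj5 was past 1.5-fold higher in 17 of 20 control and 0 of 20 irradiated thinnings, with medians of 2.37 and 0.853. In the first draw its irradiated ratio was 1.16, but 4.15 without its highest cell, in which no Aire UMI was detected. Nol4 was past 1.5-fold higher in 15 of 20 control and 1 of 20 irradiated thinnings, with medians of 1.61 and 1.33. The ratio of Ttr by cells was 0.247 (0.171 to 0.665) and 0.38 (0.226 to 0.838), and that of Nol4 1.49 (1.02 to 2.65) and 1.56 (0.860 to 2.60). Maoa was at 1.29 and 1.04, Calb1 at 1.01 and 0.961, Apob at 0.983 and 0.776, and Fabp9 at 0.776 and 0.828. At the median by cells, Ttr was below and Nol4 above the expected number for Aire as for Fezf2.

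When both regulators were considered in C2 to C4, Ttr was found in 11.9% (6.51 to 19.5) of the 109 control cells without either and in 0.649% (0.177 to 1.65) of the 616 cells with both. In the irradiated library these shares were 13.5% (8.31 to 20.2) of 141 cells and 0.722% (0.291 to 1.48) of 969 cells. With Fezf2 alone the share was 7.91% and 3.51%, and with Aire alone 2.01% and 1.92%. Fabp9 was found in 23.9% and 18.4% of cells without either and in 5.68% and 4.75% of cells with both. These classes pool C2, C3 and C4, of which C3 had the most Ttr and Fabp9. C3 gave 90 of the 109 control cells without either but 157 of the 616 with both. In the irradiated library it gave 109 of 141 and 209 of 969. The part of this mix of clusters in the shares was not tested. Maoa ran from 9.17% and 12.1% without either to 13.3% and 11.7% with both, with overlapping intervals. Among cells with Aire, Nol4 was found in 11.2% with Fezf2 and 6.53% without it in the control library. In the irradiated library these shares were 8.26% and 9.90%. Among cells without Aire they were 5.1% and 6.42% in the control library, and 7.02% and 6.38% in the irradiated one. Each of these pairs had overlapping intervals.

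The 10 genes of the Fezf2 context list, which are Aire, the chromatin remodeler Chd4, the receptors Ltbr, Tnfrsf11a and Cd40, and the NF-kB pathway genes Map3k14, Relb, Nfkb2, Traf3 and Traf6, differed little by Fezf2 detection. None of the 10 was past 1.5-fold in either library, and the ratios by UMIs ran from 0.851 for Ltbr to 1.25 for Map3k14 in control cells and from 0.876 for Ltbr to 1.22 for Aire in irradiated cells. By Aire detection, Cd40 was at 1.67 and 1.70, Traf6 at 1.62 and 1.42, and Ltbr, the lymphotoxin receptor, at 0.425 and 0.640. Of the 6 antigens listed for their dependence on Aire, 2 were past 1.5-fold higher by Aire detection in each library, and 1 and 2 were lower. Of all genes tested, 10.4% and 10.9% were higher and 18.7% and 17.3% lower. Mup4, a urinary protein of the liver, was at 5.61 and 3.66, and Sst, somatostatin, at 0.614 and 0.629, while Ins2, insulin, was at 3.21 among control cells and 0.613 among irradiated cells. These ratios rest on a single thinning draw and on few cells, and their clusters differ between the libraries. Without its highest cell Mup4 was at 4.18 and 1.93. By cells Ins2 was at 0.728 in the irradiated library, and Sst at 0.661 and 0.604. By Fezf2 detection 2 of the 6 were higher and 2 lower in the control library, and 2 higher and 1 lower in the irradiated one. Of all genes tested, 4.31% and 3.99% were higher and 14.5% and 12.1% lower.

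Between the libraries, Fezf2 stood at 3.57 (3.52 to 3.62) UMIs per 10000 in control cells and 3.40 (3.36 to 3.44) in irradiated cells, which is -0.07 on the log2 scale and equals the median of all 20969 genes tested (-0.07). With 1 library each, the ratios below compare these libraries, and the ranges in parentheses cover counting error alone. Over 10 clusters holding 100 or more cells of each library, the log2 ratio of Fezf2 lay between -0.86 in C6 and 0.27 in C8, and in C4, C2, C3 and C7 it was -0.05, -0.06, 0.02 and 0.01. It was -0.37 (-0.58 to -0.16) in C1 and -0.19 (-0.29 to -0.10) in C5, both with ranges clear of 0 but short of 1.5-fold. C0 and C9 were at -0.10 and -0.06. The value in C6 rested on 68 and 32 UMIs, and with the 8 genes kept in the clustering it was 0.01. Aire was at 4.40 and 4.54, a log2 ratio of 0.04.

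Of the 8 genes, Fabp9 alone passed 1.5-fold over all kept cells, and it was lower in the irradiated library, where 13.4% of all genes were lower and 3.67% higher. Its level was 0.898 (0.873 to 0.925) in control cells and 0.326 (0.313 to 0.339) in irradiated cells, or -1.46 (-1.56 to -1.36) on the log2 scale. With clusters weighted as in the control library it was -0.92. The share of cells with a Fabp9 UMI differed less, at 4.15% (3.48 to 4.89) and 3.28% (2.80 to 3.81). In C3, where the shares were 21.2% and 21.9%, the log2 ratio of the level was -0.99 (-1.11 to -0.87).

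The other antigens had log2 ratios over all cells of -0.12 (Apob), -0.40 (Calb1), -0.19 (Kcnj5), -0.09 (Maoa), -0.23 (Nol4) and -0.44 (Ttr). That of Ttr became -0.01 without the highest cell of each library. By thinned shares of cells, Ttr was found in 1.42% (1.04 to 1.89) and 0.908% (0.666 to 1.21), Apob in 1.39% and 1.20%, Calb1 in 2.60% and 2.23%, Maoa in 6.65% and 6.44%, Nol4 in 5.85% and 5.25%, and Kcnj5 in 0.804% and 0.869%, each pair with overlapping intervals.

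Within clusters, Apob and Calb1 differed between the libraries in opposite directions. Apob was higher in the irradiated library in C3, with 298 UMIs in 45 cells against 154 UMIs in 24 cells (log2 ratio 0.92, 0.52 to 1.32), and lower in C4, with 69 UMIs in 7 cells against 164 UMIs in 8 cells (-1.76). In C5 no control cell among 211 had an Apob UMI, while 6 irradiated cells of 550 held 51 UMIs (0.0384 per 10000). A single cell held 56.9% of these, and without it the level was 0.0166, against 0.00488 for a floor of 3 counts in the control cells. Calb1 was higher in C3 (0.82, 0.39 to 1.25) and lower in C4 (-2.02, or -1.14 without the highest cells) and C5 (-0.85, or -0.48 without the highest cells). Under alternatives the ratio of Apob in C4 came to -0.34, with at least 1000 detected genes per cell, and that of Calb1 to -0.31 in C4 and 0.18 in C3, at resolution 0.3, none of them past 1.5-fold. Ttr in C2 was at 1.97, with 407 UMIs in 21 cells against 81 in 8 cells.

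Of 50 pairs of a gene and a cluster with enough UMIs, 11 were past 1.5-fold with a range clear of 0, where 5.36% of 133132 pairs over all genes were. The 11 also included Fabp9 in C2 (-3.19, or -1.25 without the highest cells), Fabp9 in C3 (-0.45 at resolution 1.0), Kcnj5 in C5 (-1.20) and Fezf2 in C6. By the same rule, 10.6% of all genes tested were past in C2, 6.21% in C3, 8.35% in C4, 4.53% in C5 and 4.34% in C6. The share was 1.75% in C0, 4.00% in C1, 2.71% in C7, 3.68% in C8 and 3.83% in C9, where none of the 8 genes was past by this rule. Maoa and Nol4 had no such pair, and Maoa lay between -0.17 and 0.48 in the clusters where it was tested. Of the context list, Cd40 in C1 (0.90) and Aire in C8 (1.56) and C9 (1.14) were past the fold with a range clear of 0. Antigens of the Aire reference list were past by this rule in 4 of 6 in C3 and 4 of 6 in C4. Of the 8 genes, 3 of 7 tested in C3 and 2 of 8 in C4 were. In C2 and C5 the reference list had 0 of 6 and 1 of 4, and the 8 genes had 2 of 8 and 3 of 6. Irradiation and other differences between the pools of mice cannot be told apart.

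**Figure D5:**
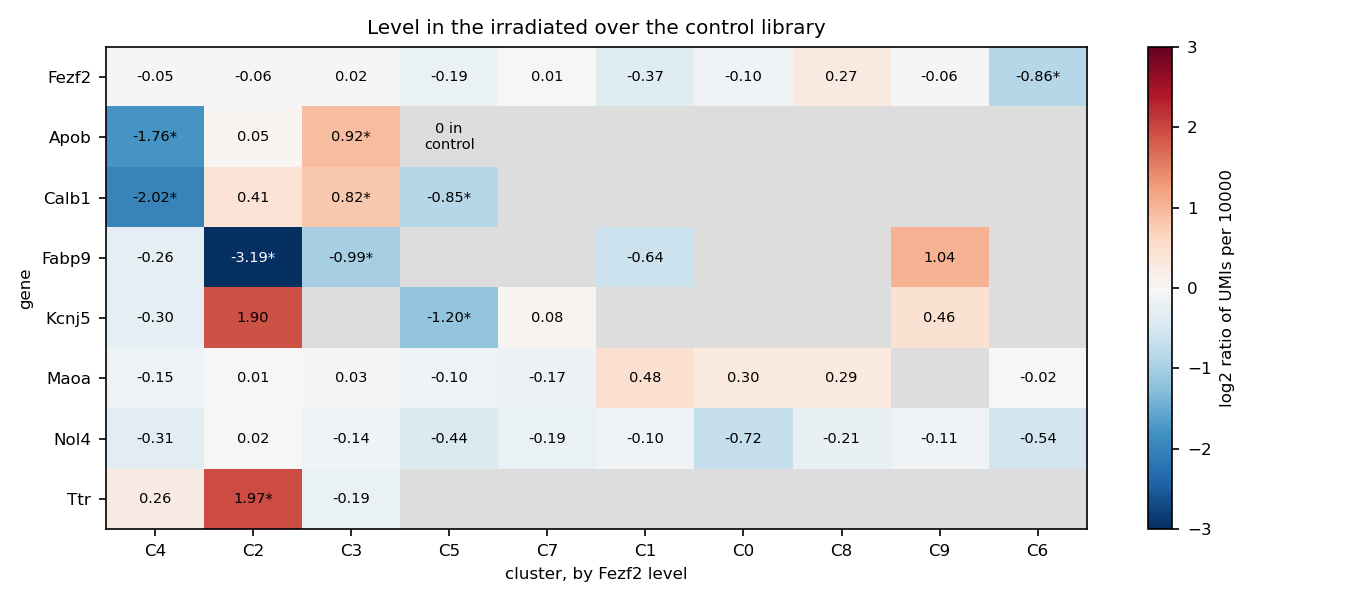
Log2 ratio of the level in the irradiated over the control library for the 8 genes in 10 clusters ordered by Fezf2 level; grey cells without a number had fewer than 20 UMIs over both libraries, and an asterisk marks a ratio past 1.5-fold whose counting range is clear of 0. Apob and Calb1 were above 0 in C3 (0.92 and 0.82) and below it in C4 (-1.76 and -2.02), while Fezf2 stayed between -0.86 and 0.27.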

How the data were processed

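Droplet RNA counts of sorted TECs were analysed from 2 libraries, of which either condition had 1, with TECs of 3 mice pooled in it. The authors deposited count matrices of whole UMIs per gene and barcode. These were made with Cell Ranger against mm10, version 5.1 in the submitters' processing notes and 5.0.1 in the file header. The labels and the study's methods name different versions of the droplet chemistry. Libraries were assigned to conditions by the number of kept cells and against the sample labels, which is the open point on which each direction between them rests.

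Barcodes with more than 2000 and fewer than 7500 detected genes and under 15% mitochondrial UMIs were kept. No doublet caller was run, so the upper gene limit is the only step against doublets. Both libraries were integrated and clustered with Seurat 5.3.0 (R 4.3.3; 3000 variable genes, 2000 anchor genes, 20 principal components, resolution 0.5) with the 8 genes left out. Aire was not left out. Clusters were named from fixed marker lists, and the rule for leaving C3 unnamed was tightened after values were seen. The named genes were the 8 genes, a context list of 10, a reference list of 6 antigens that depend on Aire (Spt1 was matched as Mucl2), the 10 genes most like Fezf2 (log2 of the level plus 0.05, genes of at least 500 UMIs) and the 3 most like each antigen. The genes and lists were chosen with earlier results of these data known.

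UMIs were summed per library and cluster. With 1 library per condition no test was run and no p-value is given. For detection classes each cell was thinned to 4000 UMIs (5 irradiated cells were shallower and left out), and UMIs were set against those expected from the other class within clusters with at least 20 cells of each. Genes were called past 1.5-fold only with at least 20 expected UMIs, or 20 UMIs over both libraries. In the comparison of antigen-high cells the minimum was 5 expected UMIs. Log2 ratios used 0.5 added UMIs. The intervals are exact Poisson and Clopper-Pearson at 95%, and cover counting error only, since UMIs of 1 cell are not independent. Sums used numpy 2.4.6 and pandas 2.3.3, and intervals used scipy 1.17.1 (Python 3.11.15). The comparison between libraries and that by Fezf2 detection were tried on simulated Poisson counts. These had no spread between cells of a cluster beyond counting error, so the trial does not cover antigens held by few cells.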

Additional observations from a re-analysis of the deposited data

Results flagged for a closer look

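For 2 antigens the difference between the libraries had opposite directions in different clusters, and the difference between clusters was not tested. Apob had a log2 ratio of irradiated over control of 0.92 in C3 and -1.76 in C4, and in C5 the irradiated level was 7.88 times that of a floor of 3 counts, as no UMI was counted in control cells. In C5, 1 cell held 56.9% of the 51 irradiated UMIs, and without it the level was 0.0166 in place of 0.0384 per 10000. Calb1 had log2 ratios of 0.82 in C3, -2.02 in C4 and -0.85 in C5. In C4 the Apob values rested on 8 control and 7 irradiated cells with a UMI. The log2 ratio of Apob in C4 was -0.34 with at least 1000 detected genes per cell, and those of Calb1 were -0.31 in C4 and 0.18 in C3 at resolution 0.3, so that these pairs fell short of 1.5-fold there.

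The ratio of Ttr by Fezf2 detection lay on opposite sides of 1 in the libraries, at 2.49 in control cells and 0.0754 in irradiated cells, which was not tested either. Over 20 random thinnings the medians of this ratio were 0.753 and 0.264, both below 1.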

How the results depend on the processing

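Of 1298 alternative values for 113 results, 916 stayed within their counting interval or count range, 375 moved and 7 changed direction. Fezf2 in C4 was 6.59 (control) and 6.37 (irradiated) at resolution 0.3, 5.55 and 5.45 with at least 1000 detected genes, 8.61 and 8.55 under a 10% mitochondrial limit, and 8.29 and 8.03 with mitochondrial UMIs out of the denominator. Without the 5% of cells with most UMIs the control value was 8.15. By Fezf2 detection in control cells, Calb1 was 0.386 and Ttr 0.349 in a second draw, Fabp9 was 1.03 without thinning, and Ttr was 0.512 by share of cells and 0.753 at the median of 20 draws. By Aire detection Ttr was 1.29 in control cells at 6000 UMIs. Ttr in C3 was 0.172 and 0.206 at resolution 1.0. Fezf2 in C6 had a log2 ratio of 0.0058 with the 8 genes kept in the clustering. The 11 pairs of gene and cluster past the fold were 7 under the 10% mitochondrial limit.

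By Fezf2 detection, control antigens higher (3) were 1 without the highest cell, 0 in the second draw, 6 without standardisation, 1 by cells and 1 at the median of 20 draws. Control antigens lower (1) were 2 at resolution 0.3, 2 without the highest cell, 3 in the second draw, 2 at 6000 UMIs and 2 at the median of 20 draws. Irradiated antigens higher (0) were 1 at resolution 1.0, without thinning, in the second draw and by cells, and 4 without standardisation. Irradiated antigens lower (2) were 1 without standardisation.

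By Aire detection, control antigens higher (1) were 3 at resolutions 0.3 and 1.0 and with at least 1000 genes, 4 under the 10% limit and in the second draw, 0 without the 5% of cells and at 100 expected UMIs, 2 at 6000 UMIs and at the median of 20 draws, and 5 without standardisation. Control antigens lower (1) were 2 in the second draw and 0 at 6000 UMIs. Irradiated antigens higher (0) were 1 at resolution 0.3, with at least 1000 genes, under the 10% limit, without the highest cell, without thinning and at 6000 UMIs, and 5 without standardisation. Irradiated antigens lower (1) were 2 with at least 1000 genes, 3 without thinning and in the second draw, and 4 at 6000 UMIs. The cause of these changes was not tested. Shares of cells, the control library's cluster weights and the 20 draws were chosen after seeing the data.

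No paired analysis was possible because each condition has 1 library. Levels of Ttr, Apob, Fabp9 and Calb1 rest on few cells, and Kcnj5 on few UMIs.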
